A study of Homo sapiens with 6 samples.

Results

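The classical MHC class II molecules are cell surface dimers of an alpha and a beta chain that present peptides to CD4+ T cells. Their chains are encoded on human chromosome 6 and fall into the isotypes DR, DP and DQ. The 7 chain genes HLA-DRA, HLA-DRB1, HLA-DRB5, HLA-DPA1, HLA-DPB1, HLA-DQA1 and HLA-DQB1 were taken by symbol from the 18278 genes of the deposited table, after matching Ensembl identifiers without version to GENCODE release 29. All 7 were listed, and all 7 passed the filter on low values, which asked for 10 or more normalized read counts on average over the 6 samples. The rule goes by gene name and uses no measured value.

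The RNA came from Toledo, an established human line of diffuse large B cell lymphoma, from a series on CARM1 inhibitors and lymphomas with CREBBP or EP300 mutations. CARM1 is an arginine methyltransferase that acts on histones and on transcriptional coactivators. The treated group was 3 samples given 5 uM of TP-064, an inhibitor of CARM1, and the control group was 3 samples given the solvent DMSO. Both groups were grown in suspension and harvested after 6 days. Nothing in the labels says whether replicates were separate cultures, so p-values reflect the variation among these samples alone, and that variation may be technical.

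Class II chains are made in B cells without stimulation. Their transcription is switched on by the coactivator CIITA, which binds no DNA itself and is held at the promoter by the RFX complex on the X box, by CREB family factors beside it and by the NF-Y complex on the Y box. The dimers then assemble on the invariant chain CD74 in the endoplasmic reticulum and receive peptide in endosomes, where HLA-DM edits the peptide and HLA-DO modulates HLA-DM. The acetyltransferases CREBBP and EP300 are coactivators at class II promoters.

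The question asked here was whether the alpha and beta chain transcripts of each isotype differed between TP-064 and DMSO. HLA-DRA, the DR alpha chain, was 1.38-fold higher after TP-064, and its partner HLA-DRB1 was at 1.02 times its DMSO level. In DP the order was the other way round, with the beta chain HLA-DPB1 1.31-fold higher and the alpha chain HLA-DPA1 at 1.04 times its DMSO level. HLA-DQA1, the DQ alpha chain, was 1.20-fold higher. Of the 7 chains 3 rose, 0 fell and 4 did not pass the test, where 65.1% of all 16048 tested genes were called, 31.9% as higher and 33.3% as lower.

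The promoter stretches are shown first, because the X and Y boxes are the elements that the class II genes are known to share and their chains did not all move by the same amount. RefSeq promoter entries (GRCh38.p14) were matched for 6 of the 7 genes, HLA-DRA not among them. The stretches run 5′ to 3′ on the gene's strand and end just before the RefSeq start site or before the first base that GENCODE annotates as an exon. HLA-DRB1 is at chr6:32589849-32589998, minus strand, HLA-DRB5 at chr6:32530288-32530437, minus strand, and HLA-DQA1 at chr6:32637256-32637356, plus strand. HLA-DQB1 is at chr6:32666695-32666807, minus strand, and HLA-DPB1 at chr6:33075840-33075925, plus strand. Capitals mark the letters AGNAAC, which occur within many X boxes, and ATTGG, the core of the Y box that NF-Y binds, or their reverse complements.
HLA-DRB1: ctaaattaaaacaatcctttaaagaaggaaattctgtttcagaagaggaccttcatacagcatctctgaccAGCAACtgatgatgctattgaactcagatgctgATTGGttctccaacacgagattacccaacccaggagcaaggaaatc
HLA-DRB5: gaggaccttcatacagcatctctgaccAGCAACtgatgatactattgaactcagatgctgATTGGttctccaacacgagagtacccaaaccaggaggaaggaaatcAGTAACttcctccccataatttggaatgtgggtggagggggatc
HLA-DQA1: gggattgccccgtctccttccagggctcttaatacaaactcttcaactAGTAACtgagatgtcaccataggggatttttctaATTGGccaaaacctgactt
HLA-DQB1: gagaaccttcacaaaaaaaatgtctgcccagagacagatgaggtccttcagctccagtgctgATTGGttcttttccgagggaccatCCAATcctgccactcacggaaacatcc
HLA-DPB1: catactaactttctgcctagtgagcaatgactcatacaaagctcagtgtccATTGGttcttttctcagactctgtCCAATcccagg

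The letters searched were chosen with these sequences in view, on both strands, over the 250 bases before each RefSeq start. AGNAAC followed by ATTGG at a distance of 20 to 50 bases was found in HLA-DRB1 and HLA-DRB5, 33 bases apart, and in HLA-DQA1, 34 bases apart. The pair lay within 250 bases of the start in 1.23% of all 35116 RefSeq promoters, while AGNAAC alone was in 36.7% of them and ATTGG alone in 32.0%. HLA-DQB1 and HLA-DPB1 held ATTGG with a CCAAT after it and no AGNAAC. The letters AGNAAC occur within many X boxes, and their absence does not show that an X box is lacking. HLA-DPA1 has 2 RefSeq starts; the window of the start at 33073649 held AGNAAC at -99, counted back from the start, and no ATTGG, and that of the start at 33080748 held neither. The paired letters stood in a chain that rose (HLA-DQA1) and in chains that did not pass the test (HLA-DRB1 and HLA-DRB5). They were absent from a chain that rose (HLA-DPB1) and from chains that did not pass (HLA-DQB1 and HLA-DPA1). HLA-DRA, which rose most, had no entry. Whether the letters bear on the change of a chain was not tested. A match of letters is a description of the reference sequence and not a measured site.

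In the DR isotype the alpha chain gene HLA-DRA (ENSG00000204287.13) lies on chromosome 6 from 32439842 to 32445046, plus strand, GRCh38. Values are normalized read counts, that is, reads per gene after division by the sample's size factor. HLA-DRA read 58851, 64555 and 61642 in TP-064 replicates 1, 2 and 3, and 43000, 45727 and 45285 in DMSO replicates 1, 2 and 3. Every treated sample lay above every control, with 61683 ± 2852 after TP-064 against 44670 ± 1463 after DMSO (SD, n = 3 each). The log2 fold change was 0.47 (SE 0.04, 95% interval 0.38 to 0.55, limma adjusted p = 1.33e-07). Fold changes are TP-064 minus DMSO of log2(normalized read count + 1), and a gene was called at an adjusted p under 0.05.

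HLA-DRB1 (ENSG00000196126.11), the polymorphic beta chain that pairs with HLA-DRA, lies from 32578769 to 32589848 on the minus strand. It read 3647, 3943 and 3406 with TP-064 and 3493, 3699 and 3535 with DMSO. The groups overlapped, since the lowest and the highest of the 6 values were both from treated samples. Its log2 fold change was 0.03 (SE 0.05, 95% interval -0.07 to 0.14, limma adjusted p = 0.568), so a rise above 1.10-fold lay outside the interval under the authors' size factors. With library size scaling it was 0.16 and with upper quartile scaling 0.12, and it passed under both (limma adjusted p = 0.00338 and 0.0218). Without TP-064 replicate 2 the value was -0.02.

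HLA-DRB5 (ENSG00000198502.5) is a second DR beta gene that only some human haplotypes carry, and it lies from 32517343 to 32530287 on the minus strand. It was listed at 246, 265 and 215 normalized read counts after TP-064 and 222, 211 and 213 after DMSO. TP-064 replicate 3 fell within the range of the controls, and replicates 1 and 2 above it. The log2 fold change was 0.16 (SE 0.10, 95% interval -0.04 to 0.37, limma adjusted p = 0.148), and without TP-064 replicate 3 it was 0.25 and passed (limma adjusted p = 0.0423). In the reference transcripts 8.42% of the stretches of 50 bases in HLA-DRB5 occur unchanged in HLA-DRB1. Whether the HLA-DRB5 reads came from that gene or from another DRB allele of the line was not tested.

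In the DP isotype the beta chain gene HLA-DPB1 (ENSG00000223865.10), from 33075926 to 33087201 on the plus strand, was the chain that rose. It read 7229, 7774 and 6935 with TP-064 and 5419, 5713 and 5611 with DMSO, with no overlap between the groups. The means were 7312 ± 425 and 5581 ± 149 (SD, n = 3 each), a log2 fold change of 0.39 (SE 0.04, 95% interval 0.30 to 0.48, limma adjusted p = 1.08e-06).

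HLA-DPA1 (ENSG00000231389.7), the DP alpha chain, runs the other way from 33064569 to 33080775 on the minus strand. It read 19917, 21391 and 19574 with TP-064 and 18582, 20487 and 19460 with DMSO. The treated and control samples overlapped, with DMSO replicate 2 above TP-064 replicates 1 and 3. The log2 fold change was 0.06 (SE 0.04, 95% interval -0.04 to 0.15, limma adjusted p = 0.264). The 2 DP genes share 96 bases of exon on opposite strands, which is 3.4% of the exon length of HLA-DPB1 and 1.7% of that of HLA-DPA1. The sources used here do not say whether reads were counted by strand.

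The DQ chains had far fewer reads than HLA-DRA or the DP chains. HLA-DQA1 (ENSG00000196735.11), from 32628179 to 32647062 on the plus strand, read 455, 556 and 506 with TP-064 and 423, 426 and 417 with DMSO. All treated samples were above all controls, and TP-064 replicate 1 was the closest to them. The means were 505 ± 50.7 and 422 ± 4.54 (SD, n = 3 each), with a log2 fold change of 0.25 (SE 0.08, 95% interval 0.09 to 0.42, limma adjusted p = 0.00844). With the 4 libraries whose whole reads were recovered, without replicate 2 of each group, it no longer passed, at 0.21 with edgeR (adjusted p = 0.0656) and 0.20 with DESeq2 (adjusted p = 0.272); limma on the same 4 libraries gave 0.19 (adjusted p = 0.0692).

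HLA-DQB1 (ENSG00000179344.16), the DQ beta chain from 32659467 to 32668383 on the minus strand, had the fewest reads. It was at 187, 181 and 129 normalized read counts after TP-064 and at 124, 153 and 123 after DMSO, so that TP-064 replicate 3 lay among the controls. The log2 fold change was 0.30 (SE 0.15, 95% interval -0.01 to 0.61, limma adjusted p = 0.0867). Without TP-064 replicate 3 it was 0.47 (limma adjusted p = 0.00546) and without DMSO replicate 2 it was 0.40 (limma adjusted p = 0.0410). Counting error alone is 7.77% of the HLA-DQB1 mean after TP-064, where the replicates varied by 19.3%, and 0.403% of the HLA-DRA mean, where they varied by 4.62%. In DMSO, HLA-DQA1 varied by 1.07% and HLA-DRB5 by 2.80%, less than their counting errors of 4.87% and 6.81%. The other chains varied by more than theirs. The small spread of the HLA-DQA1 controls is thus below what counting alone would typically give.

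**Figure D1:**
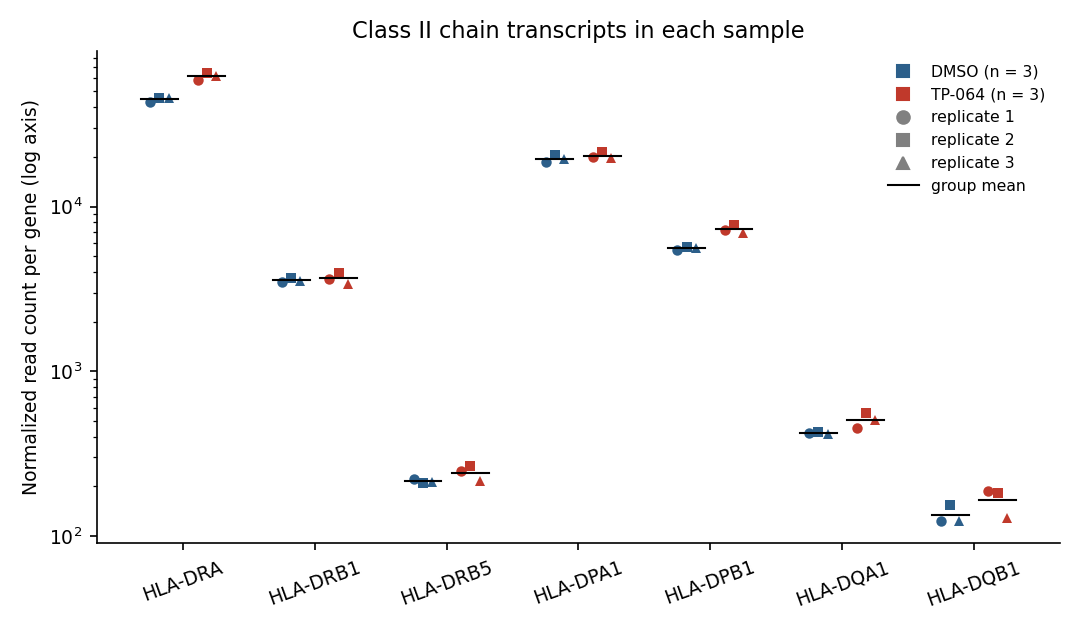
Normalized read count of each class II chain gene (vertical, log axis) in the 3 DMSO samples (blue) and the 3 TP-064 samples (red), with replicates by symbol and the group mean as a bar. The red points of HLA-DRA, HLA-DPB1 and HLA-DQA1 all lie above the blue ones, while those of the other 4 genes overlap them.

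Over the 7 chains, 3 were called higher and 0 lower, and the median log2 fold change was 0.25. Among the 16048 genes tested 65.1% were called in either direction, 31.9% of all as higher, and the median was 0.01. The share of chains called higher, 42.9%, rests on 3 genes and lies close to that background. In 3 of the 7 chains all TP-064 samples lay above all DMSO samples, where 33.9% of all tested genes did so. All 7 log2 fold changes were above 0, called or not. Without TP-064 replicate 3 the number of chains called was 5, all higher, where 4939 of 15906 tested genes were called higher.

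With the values scaled to library size in place of the authors' size factors, the median of all genes moved to 0.13 and all 7 chains passed as higher, where 41.5% of all tested genes did. All 7 also passed with upper quartile scaling, where 38.6% of all tested genes were called higher. HLA-DPA1 was at 0.18 with library size scaling (limma adjusted p = 0.000296). Relative to the median of all genes under library size scaling HLA-DRB1 and HLA-DPA1 lay at 0.03 and 0.05, against 0.46 for HLA-DRA and 0.38 for HLA-DPB1. Library size scaling divides all genes of a sample by a common factor, which shifts all log2 fold changes by nearly the same amount. The order of the 7 chains and their distances from the median were therefore the same by construction.

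**Figure D2:**
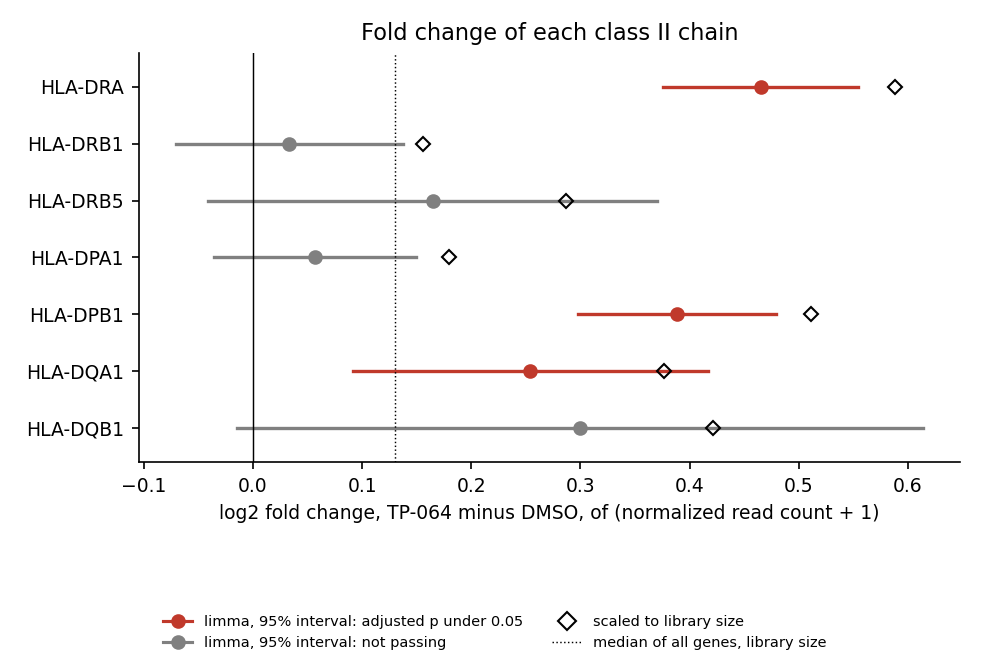
Log2 fold change, TP-064 minus DMSO, of each chain (horizontal) with its 95% interval from limma, red where the adjusted p was under 0.05; open diamonds give the value with scaling to library size and the dotted line the median of all genes under that scaling. HLA-DRA and HLA-DPB1 have intervals that start at 0.38 and 0.30, while those of HLA-DRB1 and HLA-DPA1 include 0.

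The ratio of alpha to beta chain reads within a sample does not depend on how the sample is scaled, apart from the added pseudocount. The DR ratio, HLA-DRA over HLA-DRB1, was 16.1, 16.4 and 18.1 in TP-064 replicates 1, 2 and 3, and 12.3, 12.4 and 12.8 in the DMSO replicates. Each treated sample was above each control, by 0.43 on the log2 scale between the means (exact permutation p = 0.1, two-sided, adjusted 0.15 over the 3 isotypes). With 3 samples against 3, 0.1 is the smallest p that this test can give. With HLA-DRB5 added to the beta chain the difference was 0.42.

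The DP ratio, HLA-DPA1 over HLA-DPB1, moved the opposite way. It was 2.76, 2.75 and 2.82 with TP-064 and 3.43, 3.59 and 3.47 with DMSO, so that every treated sample lay below every control, with a log2 difference of -0.33 (exact permutation p = 0.1, adjusted 0.15). The spread within groups was small, with SDs of 0.02 and 0.03 on the log2 scale. The DQ ratio, HLA-DQA1 over HLA-DQB1, was 2.43, 3.07 and 3.92 with TP-064 and 3.42, 2.79 and 3.39 with DMSO. Those groups overlapped, and the log2 difference of -0.05 was smaller than the SD within either group (exact permutation p = 1, adjusted 1). These are ratios of reads and not of transcripts, since chains can differ in length and in how well their alleles align to the reference. HLA-DRA and HLA-DRB1 were close in exon length, at 1280 and 1229 bases, and the part of alignment in the DR ratio was not tested.

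**Figure D3:**
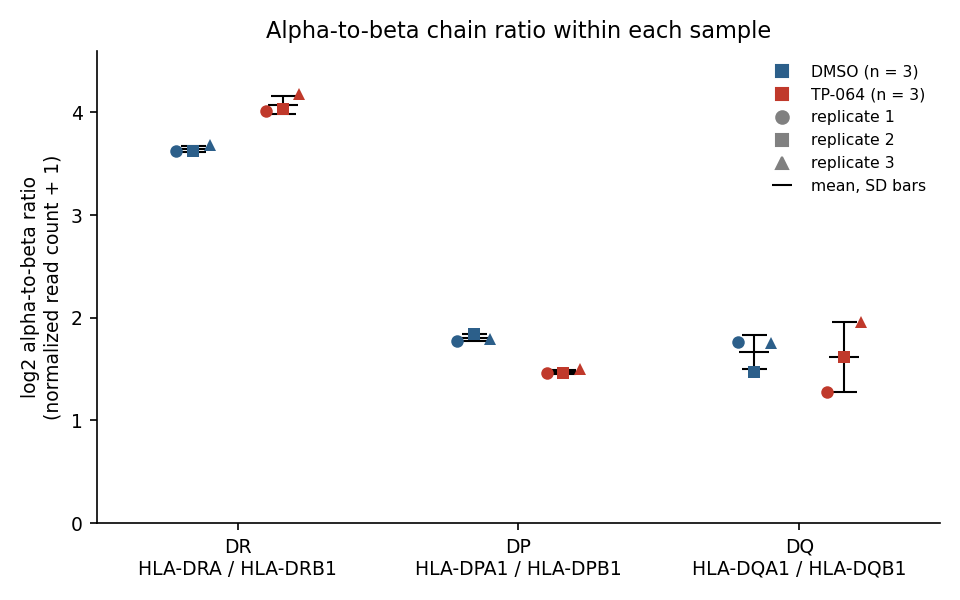
Log2 ratio of alpha to beta chain (normalized read count + 1) within each sample (vertical) for DR, DP and DQ, with DMSO in blue, TP-064 in red, replicates by symbol and the mean with SD bars in black. The DR ratio is higher in all TP-064 samples, the DP ratio is lower in all of them, and the DQ ratios overlap.

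Levels of different chains were compared per kilobase of exon, over all annotated exons of a gene. In the DMSO samples HLA-DRA stood first at 33594 to 35724 normalized read counts per kb. HLA-DPA1 followed at 3233 to 3564 and HLA-DRB1 at 2843 to 3010, then HLA-DPB1 at 1942 to 2047. HLA-DRB5 lay at 167 to 176, HLA-DQA1 at 60.3 to 61.6 and HLA-DQB1 at 25.1 to 31.2 per kb of exon. No neighbours in that order overlapped over the DMSO samples. After TP-064 the order was the same, but HLA-DRB1 (2771 to 3208) and HLA-DPB1 (2485 to 2785) overlapped.

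Per kilobase of coding sequence the order changed, since exon lengths ran from 1229 bases for HLA-DRB1 to 6927 for HLA-DQA1 and coding lengths only from 762 to 872. HLA-DRA and HLA-DPA1 remained first and second in DMSO, at 56430 to 60009 and 23823 to 26266 per coding kb. HLA-DPB1 then stood above HLA-DRB1, at 6361 to 6706 against 4378 to 4636, and HLA-DQA1 above HLA-DRB5, at 479 to 489 against 264 to 278. The reads were aligned to a single reference genome, and class II alleles that differ from it can align less well; the part of this in the levels was not tested.

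The DR chains together held 87.4% ± 0.158 of the summed class II level per exon kb in DMSO and 89.1% ± 0.333 after TP-064 (SD, n = 3 each). All treated samples were above all controls for this share (exact permutation p = 0.1, adjusted 0.1). The DP share was lower in each treated sample than in each control, at 10.7% ± 0.324 against 12.4% ± 0.152, and DQ held 0.185% against 0.203%. A share is relative to the sum, in which HLA-DRA was the largest term. Neither DP chain fell in itself, with HLA-DPA1 at 1.04 and HLA-DPB1 at 1.31 times its DMSO level, against 1.38 for HLA-DRA. Per coding kb the DR share was 66.3% in DMSO and 70.8% after TP-064, and that of DP 33.0% and 28.5%. The isotype shares therefore depended on the length used, while the direction of the difference between the groups did not.

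Close relatives of the chains were listed for 4 of 11 genes on a list of paralogues, pseudogenes and antisense genes, of which 1 was called higher and 0 lower, with a median log2 fold change of 0.21. HLA-DQA2, a nonclassical paralogue of HLA-DQA1, read 631, 666 and 533 in the DMSO samples and 807, 883 and 794 in the TP-064 samples, a rise of 0.44 (SE 0.08, limma adjusted p = 0.000125). Per coding kb HLA-DQA2 lay at 697 to 871 in DMSO, above the 479 to 489 of HLA-DQA1, and 2.07% of the stretches of 50 bases in the HLA-DQA1 reference transcripts occur in HLA-DQA2. How reads of the line's HLA-DQA1 alleles divide between the 2 genes was not tested.

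The other relatives did not pass the main test, but HLA-DPB2 passed at 1.02 with library size scaling and at 0.99 with upper quartile scaling (limma adjusted p = 0.0411 and 0.0474). HLA-DQB2 was at 80.1 ± 12.4 after TP-064 and 82.3 ± 7.46 after DMSO, the pseudogene HLA-DRB6 at 146 ± 7.52 and 150 ± 22.4, and the pseudogene HLA-DPB2 at 14.5 ± 5.70 and 7.19 ± 2.50 normalized read counts (SD, n = 3 each). HLA-DRB3 and HLA-DRB4, DR beta genes of other haplotypes, and the antisense gene HLA-DQB1-AS1, which overlaps 4.9% of the HLA-DQB1 exon length, were not listed in the table. An unlisted gene is not shown to be silent. Any transcripts of HLA-DRB3 or HLA-DRB4 were not counted as such in the DR ratio and share. Whether the line carries either gene was not tested.

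Of 18 genes that regulate class II transcription or load its peptide, 17 were listed and 16 tested, with 10 higher, 4 lower and 2 not called and a median log2 fold change of 0.24. Over all tested genes 31.9% were called higher and 33.3% lower, with a median of 0.01. HLA-DOA, the alpha chain of the HLA-DM modulator, rose by 0.69 (SE 0.04, limma adjusted p = 2.82e-10), with means of 4093 ± 92.9 in DMSO and 6584 ± 198 in TP-064 samples (SD, n = 3 each). MARCH8, a membrane ubiquitin ligase that can remove class II from the cell surface, rose by 0.68 (SE 0.04). CTSS, the protease that degrades the invariant chain, rose by 0.43 and HLA-DMB, the beta chain of the peptide editor, by 0.45. These 4 genes rose with an adjusted p of at most 2.48e-07 in limma.

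The factors that occupy class II promoters did not move in one direction. NFYA and NFYB, subunits of the Y box complex, fell by 0.48 and 0.41 (SE 0.04 each, limma adjusted p = 5.42e-08 and 1.41e-07). Named after their values were seen, CIITA rose by 0.25 and the RFX subunits RFX5 and RFXANK rose by 0.35 and 0.23, while RFXAP fell by 0.40 and CREB1 fell by 0.26, each with a limma adjusted p of at most 0.00478. CIITA read 17098, 16503 and 16227 with TP-064 and 13997, 13943 and 14007 with DMSO. CD74, the invariant chain, was at 106459 ± 5231 and 90245 ± 2229 normalized read counts (SD, n = 3 each), a rise of 0.24 (limma adjusted p = 0.000206) that was also chosen after its value was seen. The counts of 10 higher and 4 lower were the same with library size and with upper quartile scaling, where those of some other lists moved.

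**Figure D4:**
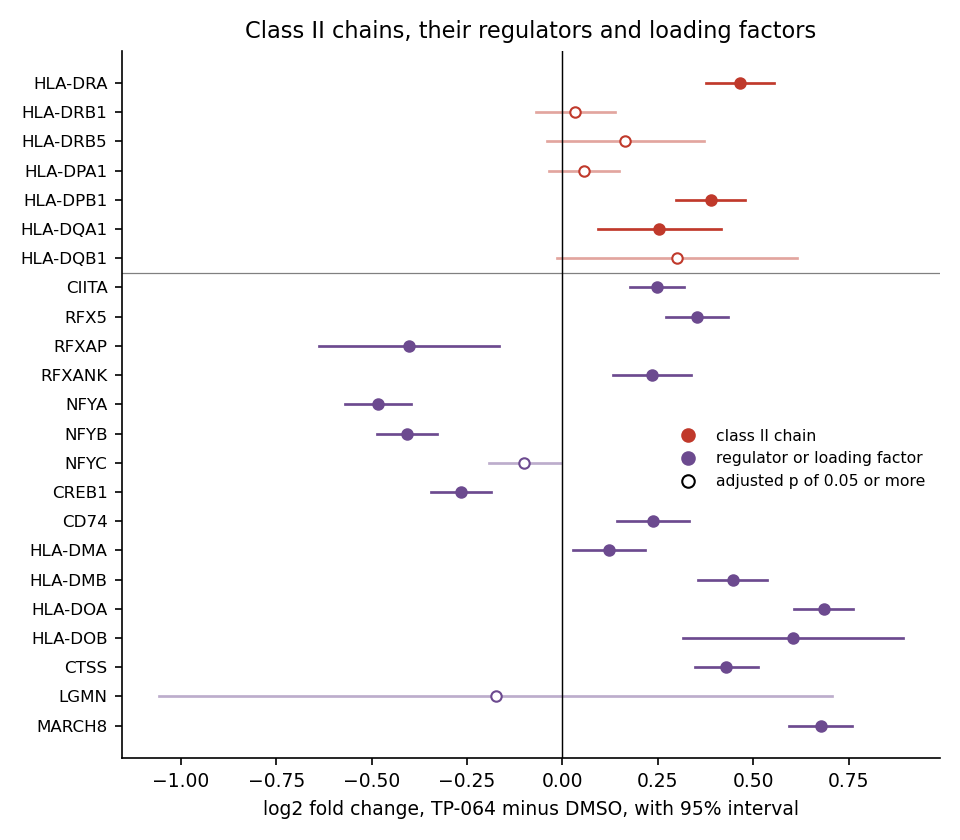
Log2 fold change, TP-064 minus DMSO, with 95% intervals for the 7 class II chains (red, above the line) and the 16 tested regulators and loading factors (purple); open symbols have a limma adjusted p of 0.05 or more. HLA-DOA and MARCH8 lie farthest right, at 0.69 and 0.68, and NFYA and NFYB lie left of 0, at -0.48 and -0.41.

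NLRC5, the counterpart of CIITA for the MHC class I genes, whose products present peptides to CD8+ T cells, fell by 0.22 (SE 0.04, limma adjusted p = 0.000422). Its log2 fold change was -0.10 with library size scaling and -0.14 with upper quartile scaling (limma adjusted p = 0.0460 and 0.00911).

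The pattern of each gene over the 6 samples was compared with the median pattern of the 7 chains, as the root mean square distance between log2 values centred on their means. Among 7058 protein-coding genes with a mean of at least 1000, the nearest were RPL13 at 0.0124, RFXANK at 0.0311, HPS6 at 0.0329, RPL10 at 0.0362 and IGLL1 at 0.0370. The distances of the chains themselves ran from 0.0521 for HLA-DRB5 to 0.152 for HLA-DQB1. They cannot be set against those of the 5 genes, which were picked as the smallest of 7058. HLA-DRB5, HLA-DQA1 and HLA-DQB1 also had means below the 1000 asked of those genes. Likeness here means a similar small rise in the same libraries and no more.

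The size factors recovered from the table ran from 0.925 to 1.14. The deposited values summed to 41997457 to 43827820 in the TP-064 samples and to 46122600 to 46775877 in the DMSO samples. Every treated sum thus lay below every control sum, and library size scaling removes that difference. Of 9 B cell markers all were listed and tested, including MS4A1 and CD79A, with 4 higher, 3 lower and 2 not called and a median log2 fold change of 0.02; 5 were higher with library size or upper quartile scaling. Of 6 T cell markers only TRAC was listed, at 83.1 to 90.0 after TP-064 and 24.9 to 39.8 after DMSO, with 1 of 1 tested higher. Of 8 markers of myeloid and dendritic cells 4 were listed, with 2 higher, 1 lower and 1 not called, a median of 0.48 and a summed level of 233 to 250 after TP-064 and 93.0 to 141 after DMSO. ITGAM, FCGR1A, CLEC9A and CLEC10A of that list were not listed. In an established line such marker reads do not show that other cell types were present, and their source was not tested. Of 5 plasma cell markers 4 were tested, with 2 higher, 1 lower and 1 not called and a median of 0.18, and with library size scaling 0 were lower. The sum of the 5 was 85599 to 90258 after TP-064 and 74029 to 75220 after DMSO. Nearly all of that sum was JCHAIN, with means of 55895 after TP-064 and 38073 after DMSO, and IRF4, with 31228 and 35590. JCHAIN was called higher and IRF4 lower, so the sum does not stand for the list as a whole. A change in how many cells of the line express a gene and a change in RNA per cell cannot be told apart in these bulk samples.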

How the data were processed

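RNA of 6 Toledo samples, 3 per group, was sequenced from stranded libraries of polyadenylated RNA, per the labels' protocols. TopHat2 2.0.10, HTSeq 0.6.0 and DESeq 1.18.0 with the hg38 build are named in the submitters' processing notes. The sources used here do not give the authors' annotation release, row filter or read length. The values the authors deposited are a signal for each gene, namely reads over the sample's size factor. In each column 100% of values were whole multiples of 1 step within 0.001. For replicate 2 of each group the step lies so close to 1 that whole reads were not taken as recovered, and tests on counts used the other 4 libraries, with 41354131 to 48360867 reads.

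The main test was limma 3.58.1 in R 4.3.3 with trend = TRUE on log2(value + 1), over genes with a mean of at least 10, with no block, and with Benjamini-Hochberg adjustment over all 16048 genes tested. The procedure was also run on simulated counts in which few genes changed and the dispersion was fixed. That run did not vary library size, so it does not bear on the choice of scaling. Alternatives were pseudocounts of 0.5 and 5, no filter, a filter at 100, a threshold of 0.01, library size scaling, a replicate block, each replicate left out, and, added after the data were seen, upper quartile scaling and edgeR 4.0.16, DESeq2 1.42.0, limma-voom and limma on 4 libraries. Ratios and shares used exact permutation tests. The interval level is 95%.

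The rule for the members goes by gene name, but the members, the gene lists and the tests were chosen with earlier results of these data known. The rule for named genes takes all 7 chains, up to 4 called genes per list in the commoner direction and up to 2 opposite, all listed relatives, and the 5 nearest patterns. Symbols, exons and transcripts come from GENCODE release 29, with 18214 of 18278 identifiers matched, and promoters from RefSeq. Stretches of 50 bases were compared between reference transcripts. Counting error is 1 over the square root of the mean. The counts for the list of class I chains are not reported here.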

Additional observations from a re-analysis of the deposited data

How the results depend on the processing

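HLA-DRA and HLA-DPB1 stayed called under every alternative run, at log2 fold changes of 0.43 to 0.59 (adjusted p 1.71e-31 to 5.34e-06) and 0.34 to 0.51 (adjusted p 6.96e-13 to 2.64e-05). With library size scaling the number of chains called was 7 in place of 3, with HLA-DRB1 at 0.16, HLA-DRB5 at 0.29, HLA-DPA1 at 0.18 and HLA-DQB1 at 0.42. With upper quartile scaling it was also 7, with the same chains at 0.12, 0.25, 0.14 and 0.39, and the median of all genes was 0.09. Of all tested genes 41.5% were called higher with library size and 38.6% with upper quartile scaling, against 31.9% in the main test. As a share of the called genes alone, those called higher were 61.6%, 57.8% and 48.9% in that order. On the 4 libraries with recovered reads HLA-DQA1 was not called, at 0.21 with edgeR, 0.20 with limma-voom, 0.20 with DESeq2 and 0.19 with limma. These fits called 9712, 9632, 7992 and 9678 genes.

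With 1 replicate left out, the log2 fold changes ran from 0.43 to 0.50 for HLA-DRA, -0.0205 to 0.0850 for HLA-DRB1, 0.10 to 0.25 for HLA-DRB5, 0.02 to 0.09 for HLA-DPA1, 0.34 to 0.43 for HLA-DPB1, 0.18 to 0.33 for HLA-DQA1 and 0.20 to 0.47 for HLA-DQB1. The number of chains called ran from 3 to 5, while the number of all genes called ran from 9732 to 10247. Without TP-064 replicate 3, 5 chains were called, with 10131 of 15906 tested genes called and 4939 of them higher. The DR ratio difference ran from 0.38 to 0.46, that of DP from -0.35 to -0.31 and that of DQ from -0.22 to 0.13, the last changing sign without replicate 1 of either group. The share differences ran from 1.57 to 1.89 percentage points for DR, -1.87 to -1.55 for DP and -0.02 to -0.01 for DQ. The cause of these changes was not tested. The filter, pseudocount and threshold alternatives changed no call of a chain. TMM scaling in limma was not run, because reads of 2 libraries were not taken as recovered.

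With the replicate number as a replicate block HLA-DQB1 passed at 0.30 (limma adjusted p = 0.0493) and 10491 genes were called against 10449. No label ties same-numbered samples, and their deviations from the group means correlated at -0.086, 0.066 and -0.079 over genes, and not every sample correlated best with its own number. Among the chains alone, 6 of 7 were highest in replicate 2 of the TP-064 samples and 6 of 7 in replicate 2 of the DMSO samples.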
